A study of Mus musculus with 16 samples.

Results

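Steroid hormone and vitamin D receptors were described in newborn XX ovaries of 4 genotypes. The genes were taken by name, as 8 of the 18193 genes that had a probe set of their own on the Affymetrix mouse genome arrays used. They were the estrogen receptors Esr1 and Esr2, the progesterone receptor Pgr, the glucocorticoid receptor Nr3c1 and the mineralocorticoid receptor Nr3c2. The others were the vitamin D receptor Vdr, the retinoid X receptor Rxra and Pgrmc1, a membrane protein gene linked to progesterone responses. The 8 genes had 20 probe sets, and for each gene the probe set with the highest mean stood for it while the others served as a check.

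Each of the 16 arrays held RNA of 1 ovary taken at P0 and separated from the mesonephros, with 4 ovaries in each group. DKO ovaries were Runx1-/f and Foxl2-/- and carried the Sf1-cre transgene. Foxl2 KO ovaries were Runx1+/f and Foxl2-/- without Cre. Runx1 KO ovaries were Runx1-/f and Foxl2+/+ with Sf1-cre. Control ovaries were Runx1+/f and Foxl2+/+ without Cre. All 4 groups thus carried 1 floxed Runx1 allele. Sf1-cre acts on the floxed Runx1 allele in the somatic cells of the gonad, whereas the Foxl2 null alleles were present in every cell. The Runx1 null allele of the Runx1 KO and DKO ovaries was likewise inherited and present in every cell. Because Cre was carried only by the Runx1 KO and DKO ovaries, loss of Runx1 and presence of the transgene cannot be told apart. Control ovaries came from littermates of the knockouts per the methods, but which ovaries shared a litter is not given in the sources used here, so p-values measure the spread between these ovaries.

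Steroid hormone receptors are transcription factors that bind DNA once their hormone is bound. The vitamin D receptor does so as a pair with a retinoid X receptor. Estrogen receptor beta, the product of Esr2, is the main estrogen receptor of granulosa cells, the somatic cells that surround the oocyte. Estrogen receptor alpha, the product of Esr1, is the main form in the stroma and theca of the ovary. FOXL2 and RUNX1 are transcription factors of the pre-granulosa cells of the fetal ovary.

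Of the 8 genes, 3 passed the test in at least 1 comparison: Esr2, Vdr and Nr3c2. Their promoters, 250 bases before to 50 bases after the start of transcription, are shown 5′ to 3′ from RefSeq (GRCm38.p6), since 2 transcription factors were removed in these ovaries. Capitals mark the start base and any match to the RUNX core TGTGGT. That core and the forkhead core TGTTTA were searched on both strands. The Esr2 promoter lies at chr12:76177210-76177509 on the minus strand, the Nr3c2 promoter at chr8:76902080-76902379 on the plus strand and the Vdr promoter at chr15:97908247-97908546 on the minus strand.
Esr2: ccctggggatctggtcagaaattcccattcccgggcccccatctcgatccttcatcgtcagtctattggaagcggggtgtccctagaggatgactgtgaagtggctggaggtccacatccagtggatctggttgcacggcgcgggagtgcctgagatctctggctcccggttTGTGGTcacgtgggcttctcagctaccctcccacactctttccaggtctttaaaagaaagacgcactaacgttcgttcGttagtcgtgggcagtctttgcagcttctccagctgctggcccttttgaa
Nr3c2: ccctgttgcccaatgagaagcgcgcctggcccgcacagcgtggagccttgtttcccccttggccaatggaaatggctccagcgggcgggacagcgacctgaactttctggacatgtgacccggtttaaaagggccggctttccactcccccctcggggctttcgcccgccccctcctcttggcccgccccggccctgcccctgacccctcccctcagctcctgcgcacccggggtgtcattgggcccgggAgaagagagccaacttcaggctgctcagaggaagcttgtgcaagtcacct
Vdr: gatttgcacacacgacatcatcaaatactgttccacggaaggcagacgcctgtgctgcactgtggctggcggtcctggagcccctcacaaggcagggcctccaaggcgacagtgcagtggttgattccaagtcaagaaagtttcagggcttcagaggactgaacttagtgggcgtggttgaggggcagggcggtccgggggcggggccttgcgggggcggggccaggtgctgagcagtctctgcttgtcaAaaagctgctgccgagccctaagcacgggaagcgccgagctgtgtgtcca

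The Esr2 window held 1 RUNX core, which begins at position -78 from the start base, and no forkhead core. The Nr3c2 and Vdr windows held neither. Of the other promoters examined, that of Pgr held 1 forkhead core, and those of Esr1, Rxra and Pgrmc1 held neither word. Among all 32851 mouse promoters of this length, 16.8% held the RUNX core and 13.4% the forkhead core. A match to so short a word describes the letters and does not show a binding site.

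The labels were checked against the targeted genes. Foxl2 read 570 to 839 in DKO and 484 to 890 in Foxl2 KO ovaries, against 2641 to 3585 in Runx1 KO and 2774 to 4241 in Control ovaries. Runx1 read 2111 to 2370 in DKO ovaries, 2356 to 3054 in Foxl2 KO and 932 to 2127 in Runx1 KO ovaries, against 2142 to 2359 in Control ovaries, so the Runx1 KO ovaries all read below the Control ovaries while the DKO ovaries overlapped them. The Runx1 reading therefore does not check the label of the DKO ovaries. Where these probes lie relative to the deleted parts was not examined. None of the 10 oocyte markers and none of the 11 pre-granulosa markers read at background in any group. Background was set at an intensity of 23.7, the median reading of 6 Y-linked genes that an XX genome does not carry, and was chosen after the values were seen. The mean levels of these 6 genes ran from 4.51 to 8.30 on the log2 scale around the median of 5.31, so a higher floor at the second highest of them, Usp9y (log2 6.16, an intensity of 55.4), was also used.

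Differences are given as log2 of intensity plus 16 with the standard error of the fit, and p-values are from limma with Benjamini-Hochberg adjustment over all genes tested. In DKO against Control, 2 of the 8 genes were called at an adjusted p under 0.05, against 2.13% of all genes, and both were lower, against 0.857% of all genes called lower. In Foxl2 KO against Control, 2 of the 8 were called, 1 higher and 1 lower, against 1.52% of all genes (0.813% higher and 0.704% lower). In Runx1 KO against Control none of the 8 was called, against 0.121% of all genes. At an unadjusted p under 0.05 there were 2, against 7.34% of all genes. The median difference over the 8 genes was 0.05 in DKO ovaries, -0.10 in Foxl2 KO and 0.02 in Runx1 KO ovaries, beside 0.04, 0.05 and 0.04 over all genes. These 3 comparisons share the same 4 Control ovaries.

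**Figure D1:**
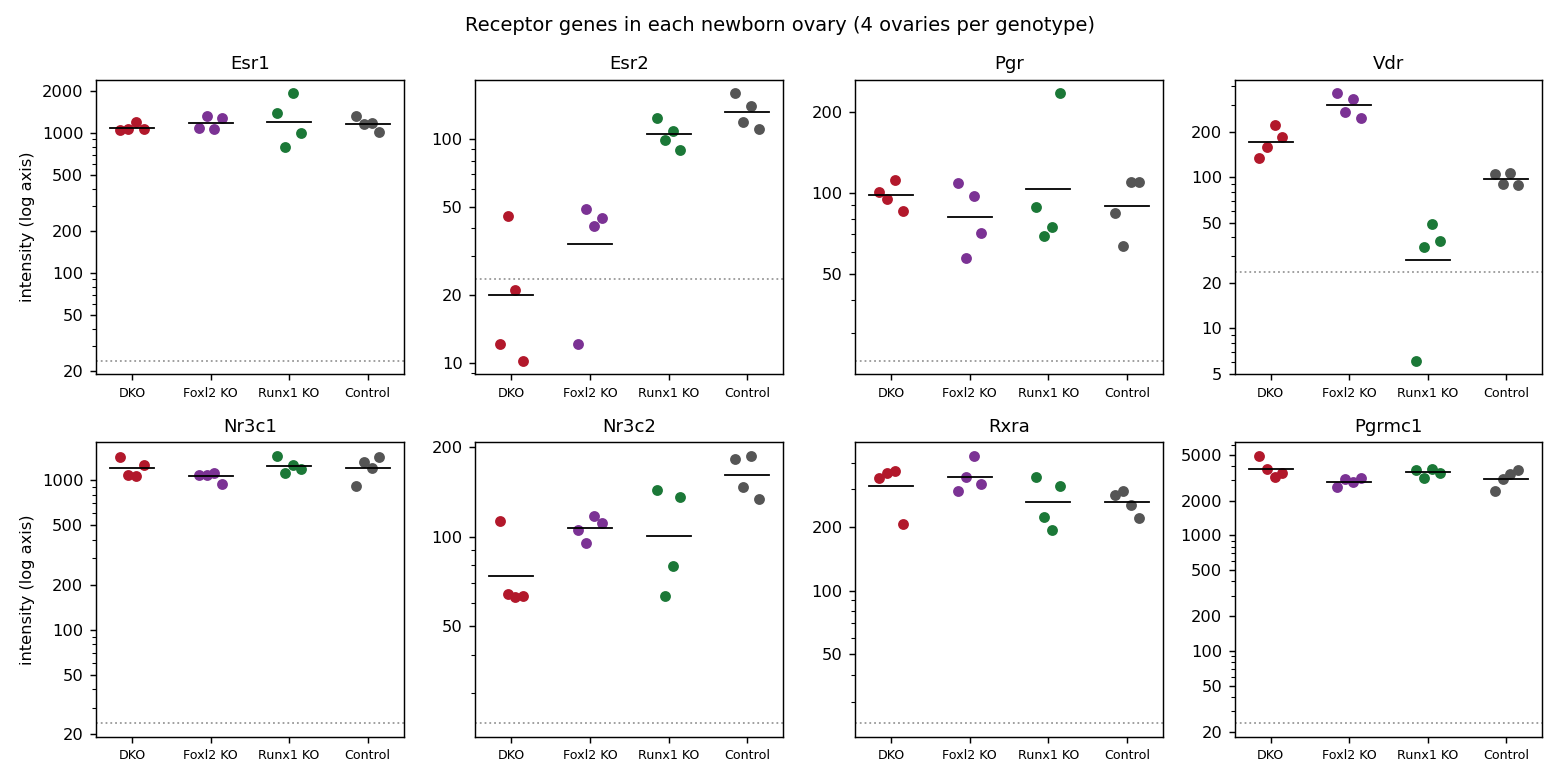
Intensity of the 8 receptor genes (log axis) in each of 4 ovaries per genotype, with DKO, Foxl2 KO, Runx1 KO and Control from left to right. Each point is 1 ovary, the black line is the group mean taken on the log2 scale, and the dotted line is the background of 23.7. Esr2 lies lower in DKO and Foxl2 KO ovaries than in the other groups, and Vdr separates all 4 groups.

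Esr2 was lower in both groups that lacked Foxl2. Its single probe set read 12.1, 45.4, 21.2 and 10.2 in the 4 DKO ovaries, and 12.2, 48.9, 40.9 and 44.3 in the 4 Foxl2 KO ovaries. It read 125, 99.4, 109 and 89.6 in Runx1 KO ovaries, against 161, 120, 141 and 111 in Control ovaries. Every ovary without Foxl2 lay below every ovary that retained it, and the 2 groups of each kind overlapped. Of all genes, 7.61% did not overlap between DKO and Control ovaries, 6.72% between Foxl2 KO and Control and 5.93% between DKO and Runx1 KO ovaries.

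Means were 22.2 ± 16.2 in DKO, 36.6 ± 16.6 in Foxl2 KO, 106 ± 15.1 in Runx1 KO and 133 ± 22.2 in Control ovaries (SD, n = 4 each). Relative to Control, Esr2 fell by 2.04 ± 0.28 in DKO (95% interval -2.62 to -1.45, adjusted p = 0.000565) and by 1.56 ± 0.28 in Foxl2 KO ovaries (-2.15 to -0.98, adjusted p = 0.00741). In 3 of 4 DKO ovaries and 1 of 4 Foxl2 KO ovaries the reading lay below background, so the DKO mean has only a bound. With readings below background raised to it, Esr2 was at least 3.34-fold lower in DKO than in Control ovaries, and at least 2.07-fold lower with the higher floor. In Foxl2 KO ovaries the fitted change was 2.96-fold. All 4 Foxl2 KO readings also lay below the higher floor, so with that floor their bound was the same 2.07-fold.

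In Runx1 KO ovaries the difference in Esr2 from Control was -0.29 ± 0.28 (-0.87 to 0.30, adjusted p = 0.846). In DKO against Runx1 KO ovaries, 2 of the 8 genes were called, Esr2 lower and Vdr higher, against 0.989% of all genes (0.423% higher and 0.566% lower). Esr2 fell by 1.75 ± 0.28 there (adjusted p = 0.00452), a reduction of at least 2.74-fold, or of at least 1.69-fold with the higher floor. In DKO against Foxl2 KO ovaries none of the 8 was called, against 0.0605% of all genes. At an unadjusted p under 0.05 there were 2, against 5.38% of all genes. Esr2 differed there by -0.47 ± 0.28 (adjusted p = 0.995). In the order of Esr2 levels, Runx1 KO and Control ovaries were thus not separated beyond their spread, nor were DKO and Foxl2 KO ovaries, in which 3 and 1 of 4 readings lay below background.

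In whole ovaries, fewer cells of a type and less RNA per cell cannot be told apart. Of the 11 pre-granulosa markers, 3 were called lower in DKO (Foxl2, Fst and Kitl) and 2 in Foxl2 KO ovaries (Foxl2 and Kitl), and none higher. Of all genes, 0.857% and 0.704% were called lower in these comparisons. The median difference of the 11 markers was 0.12 in DKO and 0.16 in Foxl2 KO ovaries, beside 0.04 and 0.05 over all genes. The list as a whole was thus not lower. Foxl2 is the gene deleted in both groups, so its call was set by the design and does not describe the cells. The summed intensity of the 11 markers, with Foxl2 included, ran from 17662 to 19878 in DKO, 16287 to 20493 in Foxl2 KO, 18002 to 23390 in Runx1 KO and 17280 to 25988 in Control ovaries, so the sums overlapped. Of 12 Sertoli markers, 5 were called higher in DKO and 5 in Foxl2 KO ovaries (Sox9, Dmrt1, Dhh and Cst9 in both, with Fgf9 in DKO and Hsd17b3 in Foxl2 KO ovaries), and 1, Fgf9, in Runx1 KO ovaries. Their sums ran from 5384 to 6055 in DKO, 3260 to 5703 in Foxl2 KO, 3727 to 4509 in Runx1 KO and 3861 to 5268 in Control ovaries. The array reading of Amh, a defining Sertoli marker, was at or below background in all 4 groups, which does not show that Amh RNA was absent. By PCR at birth, the paper reported no further Amh rise in DKO over Foxl2 KO ovaries. The part of these markers in the Esr2 difference was not tested.

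Esr1, the other estrogen receptor, did not pass the test in any comparison. It read 1048 to 1197 in DKO, 1065 to 1314 in Foxl2 KO, 794 to 1928 in Runx1 KO and 1016 to 1320 in Control ovaries. The groups overlapped, and the widest range was that of the Runx1 KO ovaries. The 95% intervals of the difference from Control were -0.53 to 0.35 in DKO ovaries, -0.42 to 0.46 in Foxl2 KO and -0.39 to 0.48 in Runx1 KO ovaries.

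The progesterone receptor Pgr read 85.6 to 112 in DKO, 57.4 to 108 in Foxl2 KO, 68.96 to 236 in Runx1 KO and 63.2 to 110 in Control ovaries. The reading of 236 belonged to 1 Runx1 KO ovary, and the groups otherwise overlapped. Intervals for the difference from Control ran from -0.50 to 0.72 in DKO ovaries, -0.73 to 0.49 in Foxl2 KO and -0.44 to 0.79 in Runx1 KO ovaries. Pgrmc1, which encodes a heme-binding membrane protein linked to progesterone responses, read 3183 to 4881 in DKO, 2611 to 3138 in Foxl2 KO, 3159 to 3782 in Runx1 KO and 2401 to 3687 in Control ovaries. All 4 DKO ovaries lay above all 4 Foxl2 KO ovaries, a comparison in which 3.57% of all genes did not overlap. The difference in Pgrmc1 was 0.36 ± 0.15 (unadjusted p = 0.0328, adjusted p = 0.889). Its differences from Control were 0.28 ± 0.15 in DKO ovaries, -0.08 ± 0.15 in Foxl2 KO and 0.18 ± 0.15 in Runx1 KO ovaries, none of which was called.

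The mineralocorticoid receptor Nr3c2 was lower in DKO than in Control ovaries. It read 112, 64.2, 62.8 and 63.3 in the 4 DKO ovaries and 105, 94.95, 117 and 111 in the 4 Foxl2 KO ovaries. It read 143, 63.3, 79.6 and 135 in Runx1 KO ovaries, against 182, 147, 186 and 134 in Control ovaries. No DKO or Foxl2 KO ovary reached the lowest Control ovary, while the Runx1 KO ovaries split into a pair within the Control range and a pair below it. Over all genes, 7.61% did not overlap between DKO and Control and 6.72% between Foxl2 KO and Control ovaries.

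Relative to Control, Nr3c2 fell by 0.98 ± 0.22 in DKO ovaries (-1.45 to -0.51, adjusted p = 0.0281), a 1.98-fold reduction. The call was lost in 6 of the 16 fits that left out 1 ovary, with adjusted p up to 0.0895. These fits were without DKO replicate 2, 3 or 4 (adjusted p = 0.0781, 0.0707 and 0.0895) and without Control replicate 1, 2 or 3 (0.0791, 0.0523 and 0.0839). In the single knockouts the differences were -0.53 ± 0.22 in Foxl2 KO (adjusted p = 0.378) and -0.61 ± 0.22 in Runx1 KO ovaries (adjusted p = 0.545), neither of which passed the test. DKO differed from Foxl2 KO by -0.45 ± 0.22 (adjusted p = 0.947) and from Runx1 KO by -0.38 ± 0.22 (adjusted p = 0.675), so a fall particular to the DKO was not shown. Nr3c2 was measured by 1 probe set.

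The glucocorticoid receptor Nr3c1 read 1065 to 1430 in DKO, 950 to 1117 in Foxl2 KO, 1116 to 1456 in Runx1 KO and 910 to 1432 in Control ovaries, and the groups overlapped. Its standard error, 0.15, was among the smallest of the 8 genes. The intervals of its difference from Control were -0.32 to 0.32 in DKO ovaries, -0.50 to 0.14 in Foxl2 KO and -0.26 to 0.37 in Runx1 KO ovaries. None of its 6 probe sets was called in any comparison with Control.

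**Figure D2:**
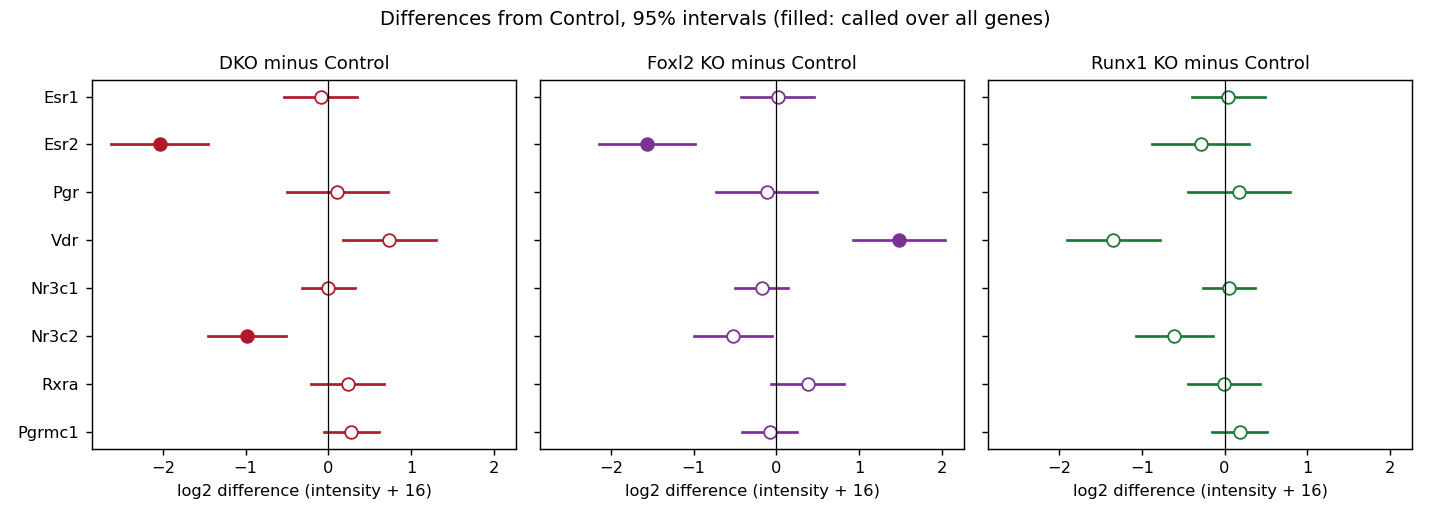
Difference from Control (log2 of intensity plus 16) of the 8 receptor genes in DKO, Foxl2 KO and Runx1 KO ovaries, with 95% intervals. Filled points were called at an adjusted p under 0.05 over all genes: Esr2 and Nr3c2 in DKO, and Esr2 and Vdr in Foxl2 KO ovaries.

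Vdr readings did not overlap between any 2 genotypes, and were highest in Foxl2 KO ovaries and lowest in Runx1 KO ovaries. It read 134, 159, 220 and 186 in the 4 DKO ovaries and 361, 272, 331 and 246 in the 4 Foxl2 KO ovaries. It read 6.09, 34.7, 48.9 and 37.9 in the 4 Runx1 KO ovaries, against 104, 90.0, 106 and 88.3 in the 4 Control ovaries. Each group thus held a range of its own. Of all genes, 7.61% did not overlap between DKO and Control, 6.72% between Foxl2 KO and Control and 3.97% between Runx1 KO and Control. The share was 3.57% for DKO against Foxl2 KO and 5.93% for DKO against Runx1 KO ovaries. It was not taken for Foxl2 KO against Runx1 KO ovaries.

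Means were 175 ± 36.8 in DKO, 302 ± 52.9 in Foxl2 KO, 31.9 ± 18.3 in Runx1 KO and 97.2 ± 9.35 in Control ovaries (SD, n = 4 each). Against Control, Vdr rose by 1.48 ± 0.26 in Foxl2 KO ovaries (0.92 to 2.04, adjusted p = 0.0078), a 2.79-fold change. In Runx1 KO ovaries the difference from Control was -1.34 ± 0.26 (-1.90 to -0.79), with an unadjusted p of 0.000116 and an adjusted p of 0.0718, which did not pass. In that group 1 of 4 readings lay below background, and all 4 lay below the higher floor. With readings below background raised to it the difference was -1.13, or -0.66 with the higher floor. Without the ovary that read below background (Runx1 KO replicate 1) the difference was -1.01 (adjusted p = 0.0584). The difference passed without Runx1 KO replicate 3 (-1.52, adjusted p = 0.0484).

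DKO ovaries lay between the Foxl2 KO ovaries and the Control ovaries. The difference in Vdr from Control was 0.74 ± 0.26 (0.18 to 1.30, unadjusted p = 0.0128, adjusted p = 0.217). Against Foxl2 KO ovaries it was -0.74 ± 0.26 (-1.30 to -0.18, unadjusted p = 0.0125, adjusted p = 0.693). Against Runx1 KO ovaries Vdr rose by 2.08 ± 0.26 in DKO ovaries (1.52 to 2.64, adjusted p = 0.000699). The Runx1 KO mean lay 0.17 above background on the log2 scale, and with readings below background raised to it the difference was 1.87, or 1.40 with the higher floor. By the second Vdr probe set, described next, it was 1.37 ± 0.17 (adjusted p = 0.000788 over all probe sets). The difference between the Runx1 effect in ovaries without Foxl2 and that in ovaries with it was 0.60 ± 0.37 (-0.19 to 1.39, adjusted p = 0.935). None of the 8 genes passed that test, against 0.011% of all genes, and none had an unadjusted p under 0.05, against 5.33% of all genes. By the second Vdr probe set the interaction was -0.14 ± 0.24.

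A second Vdr probe set gave the same order of groups. It read 137 to 184 in DKO, 192 to 295 in Foxl2 KO, 41.1 to 59.2 in Runx1 KO and 59.9 to 104 in Control ovaries. Tested over all probe sets, its difference from Control was 0.91 ± 0.17 in DKO (adjusted p = 0.0114) and 1.51 ± 0.17 in Foxl2 KO ovaries (adjusted p = 0.00023), both called. In Runx1 KO ovaries it was -0.46 ± 0.17 (adjusted p = 0.692), smaller than the -1.34 of the first probe set, and the lowest Control reading lay just above the highest Runx1 KO reading. Its 4 Runx1 KO readings all lay above background. With the mean of both probe sets, Vdr in DKO ovaries differed from Control by 0.82 (adjusted p = 0.0238). The DKO difference by the first probe set also passed without Runx1 KO replicate 1 (0.74, adjusted p = 0.0277), a fit in which only the shared spread changed.

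Among the marker lists of other cells, 1 of the 5 measured duct markers, Pax8, which marks the mesonephric and Mullerian ducts, was called higher in DKO (2.23 ± 0.35, adjusted p = 0.00213) and Foxl2 KO ovaries (1.74 ± 0.35, adjusted p = 0.0184) than in Control. The other 4 were not called in either comparison. The median difference of the 5 was -0.016 in DKO and 0.096 in Foxl2 KO ovaries, beside 0.045 and 0.053 over all genes. The 5 summed to 3243 to 3870 in DKO, 3100 to 3345 in Foxl2 KO, 2028 to 3004 in Runx1 KO and 2560 to 3382 in Control ovaries. Their part in the Vdr levels was not tested. No stromal, oocyte, surface epithelium, endothelial, erythroid or macrophage marker was called in the 3 comparisons with Control. The erythroid markers summed to 4286 to 26879 in Control ovaries, with replicate 4 apart at the top, and to 4053 to 5493 in the other groups. Without Control replicate 4 the calls of Esr2, Vdr and Nr3c2 against Control held.

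**Figure D3:**
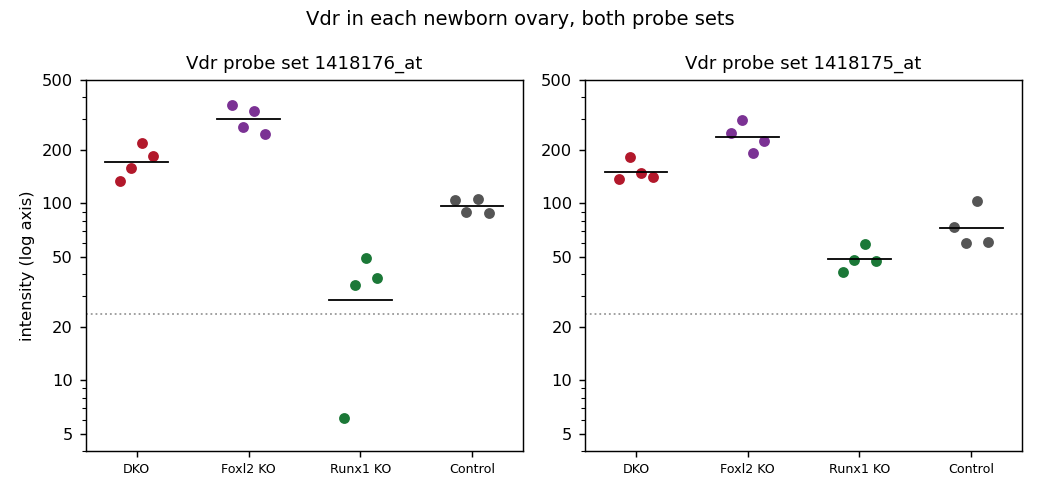
Intensity of Vdr (log axis) by its 2 probe sets in each of 4 ovaries per genotype, with the group mean on the log2 scale as a black line and the background of 23.7 as a dotted line. The order Foxl2 KO, DKO, Control, Runx1 KO from high to low holds in both panels, and the first panel has 1 Runx1 KO ovary at 6.09.

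Rxra, the partner of the vitamin D receptor, read 207 to 367 in DKO, 295 to 432 in Foxl2 KO, 193 to 344 in Runx1 KO and 220 to 296 in Control ovaries. The Foxl2 KO range touched the Control range only at its lower end, with a difference of 0.38 ± 0.21 (-0.06 to 0.81, adjusted p = 0.542). The intervals in DKO (-0.20 to 0.67) and Runx1 KO ovaries (-0.44 to 0.43) also included 0. None of the check probe sets of Esr1, Pgr, Nr3c1 or Rxra was called in any comparison with Control.

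The genes whose levels ran most like those of the 3 genes were taken over the 16 arrays, among the 9096 genes above the median level. Esr2 ran most like Zg16 (Pearson r = 0.96), Cdc42ep5 (0.94), Foxl2 (0.93), Kif26b (0.92) and Chst9 (0.92), and most opposite to Cdkn1a (-0.93), Cd83 (-0.93) and Gpt2 (-0.92). Vdr ran most like Dap (0.90), Rragd (0.89), Lef1 (0.87), Anpep (0.85) and Ypel3 (0.84), and most opposite to Sdc2 (-0.90), Mme (-0.88) and Kcnj3 (-0.87). Nr3c2 ran most like Itga6 (0.84), Rnf24 (0.82), Diaph1 (0.80), Cpa3 (0.79) and Elf1 (0.79), and most opposite to Myh8 (-0.81), Acadl (-0.78) and Tiam1 (-0.78). The arrays share their genotypes, so these values describe the pattern over the 4 groups and carry no test.

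The genes that make, carry or remove the hormones were then described from lists of pathway genes. Of 14 genes of steroid ligand supply and removal, 12 were measured. In DKO ovaries 3 were called lower and none higher, with a median difference of -0.66, beside 0.04 over all genes. In Foxl2 KO ovaries 3 were lower and 1 higher (median -0.09, beside 0.05), and in Runx1 KO ovaries 2 were lower and none higher (median -0.19, beside 0.04). Of all genes, 0.857% were called lower in DKO, 0.704% lower and 0.813% higher in Foxl2 KO, and 0.121% either way in Runx1 KO ovaries. Cyp19a1, also on this list, was not among the called genes. By PCR at birth, the paper reported it lower in both single knockouts and more so in DKO ovaries.

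Akr1c18, which inactivates progesterone, read 3.11 to 29.6 in DKO ovaries, 15.97 to 53.4 in Foxl2 KO and 21.4 to 52.2 in Runx1 KO ovaries, against 260 to 489 in Control ovaries. All Control ovaries lay above all others. Over all genes, 7.61% did not overlap between Control and DKO, 6.72% between Control and Foxl2 KO and 3.97% between Control and Runx1 KO. By the fit, Akr1c18 fell by 3.25 ± 0.31 in Foxl2 KO (adjusted p = 3.07e-05) and by 2.91 ± 0.31 in Runx1 KO ovaries (adjusted p = 0.000729). In DKO ovaries its mean lay below background, and it was at least 9.86-fold lower than in Control, or at least 5.67-fold with the higher floor (adjusted p = 3.09e-06). Every Foxl2 KO and Runx1 KO reading also lay below the higher floor. With that floor the bound was thus the same 5.67-fold in all these groups, and their order is not shown.

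Hsd3b1 encodes the enzyme that turns pregnenolone into progesterone. It read 402 to 769 in DKO ovaries, 620 to 972 in Foxl2 KO and 830 to 1159 in Runx1 KO ovaries, against 2347 to 3217 in Control ovaries. It fell by 2.19 ± 0.20 in DKO ovaries (adjusted p = 1.71e-05), fell by 1.86 ± 0.20 in Foxl2 KO (adjusted p = 0.000131) and fell by 1.53 ± 0.20 in Runx1 KO ovaries (adjusted p = 0.00382). Hsd17b7, an enzyme of estradiol and cholesterol synthesis, fell by 1.18 ± 0.22 in DKO (adjusted p = 0.00813) and by 1.09 ± 0.22 in Foxl2 KO ovaries (adjusted p = 0.0184). Its difference in Runx1 KO ovaries was -0.61 ± 0.22 (adjusted p = 0.545).

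Hsd17b3, the enzyme that makes testosterone in the testis, read 93.3 to 185 in DKO ovaries, 216 to 563 in Foxl2 KO and 45.3 to 76.4 in Runx1 KO ovaries, against 17.7 to 68.2 in Control ovaries. It rose by 2.33 ± 0.32 in Foxl2 KO ovaries (adjusted p = 0.00105). The difference was 1.22 ± 0.32 in DKO (adjusted p = 0.0692) and 0.30 ± 0.32 in Runx1 KO ovaries (adjusted p = 0.868), neither called. The Control mean of Hsd17b3 was 5.91 on the log2 scale, between the background of 5.31 and the higher floor of 6.16. No floored difference was taken for it, so the size of its rise is less certain. Hsd17b3 also stood among the 12 Sertoli markers.

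Of 8 genes that make, carry or remove vitamin D, 7 were measured and none was called against Control. Cyp27a1 was called in DKO against Runx1 KO ovaries, where it fell by 1.41 ± 0.31 (adjusted p = 0.0388). It read 6.29 to 38.2 in DKO, 40.6 to 71.8 in Foxl2 KO, 64.8 to 137 in Runx1 KO and 29.4 to 89.6 in Control ovaries. Its DKO mean of 5.41 on the log2 scale lay close to the background of 5.31, and with readings below background raised to it the difference was -1.21, or -0.66 with the higher floor. Cyp27b1, which activates vitamin D, was at or below background in every group.

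Among 11 estrogen and progesterone response genes, 10 were measured and 1 was called against Control. Ccnd1, a cyclin that drives entry into the cell cycle, read 907 to 1273 in DKO ovaries, against 486 to 690 in Control ovaries, and rose by 0.94 ± 0.21 (adjusted p = 0.0307). It read 785 to 1479 in Foxl2 KO and 684 to 1246 in Runx1 KO ovaries, where it was not called. Its mean log2 level was 10.14 in DKO, 9.98 in Foxl2 KO, 9.77 in Runx1 KO and 9.21 in Control ovaries, so a rise particular to the DKO was not shown. Greb1, an estrogen-induced cofactor of the estrogen receptor, differed by 0.77 ± 0.20 in DKO ovaries (adjusted p = 0.0528), which did not pass. In the other lists no gene was called against Control. They were 11 of 12 other steroid receptors and relatives, 14 of 15 receptors that pair with retinoid X receptors, 10 of 12 coregulators, 7 of 9 chaperones, and all 10 glucocorticoid and mineralocorticoid response genes. Among the relatives, Pgrmc2 differed by -0.48 ± 0.14 in DKO (adjusted p = 0.0948) and Paqr7 by 0.67 ± 0.19 in Foxl2 KO ovaries (adjusted p = 0.110).

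**Figure D4:**
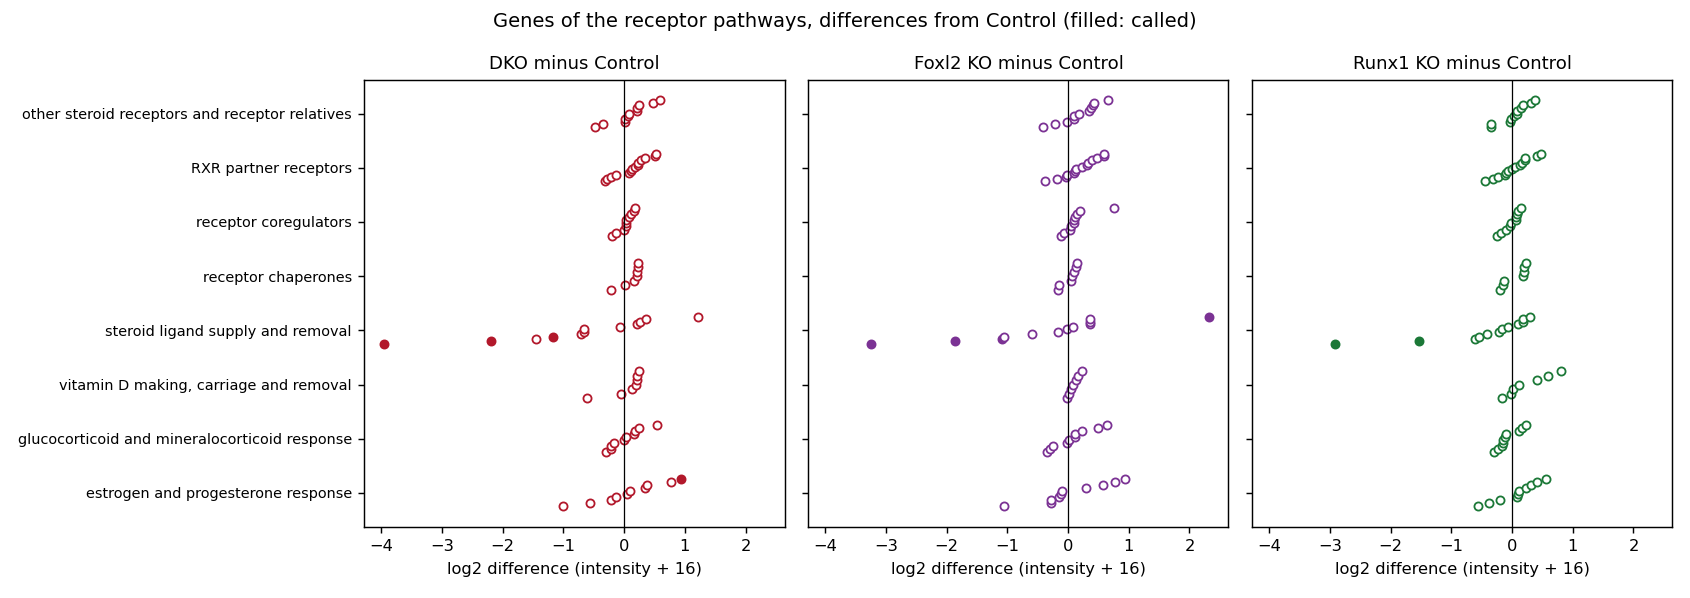
Difference from Control (log2 of intensity plus 16) of each measured gene of 8 lists of receptor pathway genes, in DKO, Foxl2 KO and Runx1 KO ovaries, with each point 1 gene and called genes filled. The called genes lie in the list of steroid ligand supply and removal, apart from Ccnd1 among the estrogen and progesterone response genes of DKO ovaries.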

How the data were processed

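RNA from 16 single newborn ovaries was amplified and hybridised to Affymetrix mouse genome arrays, 1 ovary for each array. The deposited intensity of each probe set is linear and was made by the authors with Affymetrix Expression Console 1.2, with a scaling that gave every array 1 common mean after 2% was trimmed at each end. The summarisation algorithm is not given in the sources used here, and the methods describe log2 values that these are not. Array medians ran from 134 to 177, and 11.2% to 15.6% of probe sets lay below 16. The number of arrays limits the precision.

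Of 45101 probe sets, 64 were controls, 34945 had 1 gene in the platform annotation, 932 several and 9160 none given. Intensity plus 16 was taken to log2, and 1 model with 4 group means was fitted to 18193 genes with limma 3.58.1 in R 4.3.3, in two-sided tests with 12 residual and 3.32 prior degrees of freedom. Genes with adjusted p under 0.05 were called. Pairs of groups were compared, as was the interaction, which is DKO minus Foxl2 KO less Runx1 KO minus Control. The method was tested on simulated data. The members and gene lists were chosen with earlier results of these data known. The text names the 8 receptors, the genes called in each list or otherwise the smallest p-values, and the genes most alike in pattern. Readings below the Y-linked median, or below the second highest Y-linked gene (chosen after seeing the data), were raised to it for a bound. Promoters came from RefSeq, with 9 promoters for 7 of the genes, and that of Nr3c1 was not used here. Alternatives were other scalings, offsets of 1 and 50, other choices of probe sets and genes, a fit of only the groups compared, replicate numbers entered as a block, the methods' rule (unadjusted p under 0.05 and 1.5-fold), its model with adjustment, and leaving out each array.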

Additional observations from a re-analysis of the deposited data

Results flagged for a closer look

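In 5 of the 32 sets of 4 ovaries (8 genes in 4 groups), 1 ovary stood apart, with a gap to its nearest neighbour, as a share of the range of its group, past Dixon's 95% critical value. Chance gives about 1 in 20 sets. Esr2 read 12.2 in Foxl2 KO replicate 1, against 40.9 to 48.9 in the others of that group. Nr3c2 read 112 in DKO replicate 1, against 62.8 to 64.2 in the others. Rxra read 207 in DKO replicate 4, against 340 to 367. Esr1 read 1197 in DKO replicate 3, against 1048 to 1070. Nr3c1 read 949.8 in Foxl2 KO replicate 4, against 1091 to 1117. Without Foxl2 KO replicate 1 the Esr2 difference in Foxl2 KO ovaries stayed called, and without DKO replicate 1 so did that of Nr3c2 in DKO ovaries.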

How the results depend on the processing

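The 3 Esr2 calls held in all 16 fits without 1 ovary and under each alternative in which Esr2 was tested. The Vdr call in Foxl2 KO against Control was lost with an offset of 1 (adjusted p = 0.122), which left 1 member called, and the Nr3c2 call in DKO against Control with the methods' model after adjustment (adjusted p = 0.0584), which also left 1. Restricting the fit to genes above the median level removed Esr2, Vdr, Nr3c2 and Pgr, and 0 members were then called. By the methods' rule 2 members were called in Runx1 KO against Control (Vdr and Nr3c2) and 1 in DKO against Foxl2 KO (Vdr). Without 1 ovary, members called ran from 1 to 3 in DKO ovaries, 2 to 2 in Foxl2 KO and 0 to 1 in Runx1 KO against Control.

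Over all genes, the methods' rule gave 1087 calls in DKO ovaries, 914 in Foxl2 KO and 510 in Runx1 KO against Control, 402 in DKO against Foxl2 KO, 752 in DKO against Runx1 KO and 572 in the interaction, where the fit reported gave 388, 276, 22, 11, 180 and 2. With only the groups compared there were 175 calls in Foxl2 KO and 6 in Runx1 KO against Control, 4 in DKO against Foxl2 KO and 104 in DKO against Runx1 KO. In Runx1 KO against Control, 13 were called with the mean of probe sets, with genes above the median and with the methods' model adjusted. In DKO against Foxl2 KO these were 5 above the median and 7 with the methods' model adjusted. The interaction had 1 call with every probe set and 0 with an offset of 1, above the median and with the methods' model adjusted. Without 1 ovary the counts ran from 277 to 395 in DKO ovaries, 183 to 294 in Foxl2 KO (183 without Control replicate 3) and 12 to 21 in Runx1 KO against Control, 6 to 16 in DKO against Foxl2 KO, 111 to 205 in DKO against Runx1 KO and 0 to 4 in the interaction. With equal array medians the Foxl2 KO calls were 97 higher and 141 lower, against 148 higher and 128 lower, and in DKO against Foxl2 KO 5 higher and 5 lower, against 4 higher and 7 lower.

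Replicate numbers did not pair the ovaries: 1 of 24 same-numbered pairs had a residual correlation over 0.1 (median -0.0318). With the number as a replicate block, calls were 310 in DKO ovaries, 220 in Foxl2 KO and 15 in Runx1 KO against Control, 7 in DKO against Foxl2 KO, 130 in DKO against Runx1 KO and 0 in the interaction, and members called were unchanged at 2, 2, 0, 0, 2 and 0.

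Of 496 member values under the 11 alternatives, 7 changed sign, none of them called: Esr1 in Runx1 KO against Control (-0.00057 with the mean of probe sets) and in Foxl2 KO (-0.066 with equal medians and -0.073 with the mean of probe sets), Rxra in Runx1 KO (0.016, quantile), Nr3c1 in DKO (0.041, quantile), Pgr in DKO against Runx1 KO (0.12, mean of probe sets) and Nr3c1 in the interaction (-0.042, mean of probe sets). Without 1 ovary, 730 of 768 member values kept their sign. Against Control these spanned, in Runx1 KO, -0.18 to 0.24 for Esr1, -0.18 to 0.34 for Pgr, -0.077 to 0.14 for Nr3c1 and -0.13 to 0.13 for Rxra; in Foxl2 KO, -0.050 to 0.074 for Esr1 and -0.26 to 0.017 for Pgr; in DKO, -0.030 to 0.19 for Pgr and -0.13 to 0.083 for Nr3c1. In DKO against Foxl2 KO, Rxra spanned -0.22 to 0.041. In DKO against Runx1 KO, Esr1 spanned -0.34 to 0.086, Pgr -0.23 to 0.29, Nr3c1 -0.14 to 0.018 and Pgrmc1 -0.027 to 0.18. In the interaction, Esr1 spanned -0.35 to 0.069, Pgr -0.11 to 0.41, Nr3c2 -0.031 to 0.30 and Rxra -0.27 to 0.044. The cause of these changes was not tested. With a floor at the second highest Y-linked gene, chosen after seeing the data, the floored differences were -1.05 for Esr2 and -2.50 for Akr1c18 in DKO against Control, where the median floor gave -1.74 and -3.30. Readings of Esr2 and Vdr near background limit how large their falls can be shown to be.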
